A study of Mus musculus with 4 samples.

Results

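Immunoglobulin variable segments were examined in total RNA from mouse blood neutrophils (NEU) and monocytes (MON). The members were the 167 gene entries named Ighv, Igkv or Iglv whose expected counts summed over the 4 libraries to at least 10. They were 90 heavy chain, 74 kappa and 3 lambda segments, of 281 variable segments and 43346 gene entries in all. The members were chosen by their summed level, so their presence and the order of their summed levels are description only. They held 24423 of the 24608 counts of all variable segments (99.2%). Of the other segments, 77 had no count in any library and 37 had counts summing to less than 10.

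Both groups were untreated adult C57BL6 mice, which the study's methods describe as male, with no engineered allele, and there were 2 libraries a group. After a Ficoll density gradient, which spins granulocytes and red cells below the mononuclear cells, NEU were taken from the pellet once the red cells were lysed, and they were not sorted. MON were sorted from the mononuclear layer, as Gr-1+Mac-1+ cells in the labels, whereas a table of the study gives Ly6g- CD11b+. Replicates were described for the whole study as cells of different mice or as separately collected aliquots of the same mice, and which applied here was not given, so the p-values measure only the spread between these libraries.

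Total expected counts were 21634828 and 20549572 in NEU and 26076261 and 25538433 in MON. Marker genes showed both intended populations and other cells. The 8 neutrophil markers summed to 7149 and 7316 CPM (counts scaled to the same total in every library) in NEU and 314 and 340 CPM in MON, and 7 of the 8 were called higher in NEU. The other, Retnlg, was called higher in MON, with 174 and 195 CPM in NEU and 224 and 235 CPM in MON (edgeR adjusted p = 0.045). All 8 monocyte markers were called higher in MON, with 449 and 438 CPM in NEU and 4816 and 4851 CPM in MON. All 17 B lineage markers were called higher in NEU, where they summed to 5362 and 5200.5 CPM, against 707.5 and 827 CPM in MON. All 8 natural killer cell markers were called higher in MON, at 28.9 and 30.3 CPM in NEU and 2537 and 2473 CPM in MON. Xist, the RNA that silences an X chromosome in female cells, had 235 and 237 CPM in NEU and no count in either MON library, while the Y-linked Ddx3y had 161 and 135 CPM in NEU and 376 and 386 CPM in MON. Xist is normally silent in male cells, and how it came to be counted in NEU was not tested. In bulk RNA, fewer cells of a type and less RNA per cell cannot be told apart.

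An antibody is made of heavy chains and of kappa or lambda light chains. A developing B cell joins 1 of many variable segments to a joining segment, with a diversity segment between them in the heavy chain, so that each B cell clone carries its own choice and transcribes it from the promoter in front of that variable segment. Naive B cells join the heavy variable region to the constant genes Ighm and Ighd. After stimulation they can switch to Igha or an Ighg gene, and plasma cells transcribe the rearranged genes at very high levels. Joining of these segments is known from developing B cells, which neutrophils and monocytes are not.

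The coding end of the segments is shown for the leading ones of each locus, because it is the part that every rearranged transcript of a segment keeps up to the junction. The sequences are the last 100 bases of the annotated transcripts (GENCODE M21, GRCm38, which is mm10), 5′ to 3′, and the capitals mark the codon of the second conserved cysteine, which closes the immunoglobulin fold just before the junction. The ends lie in the last exon, at chr12:114788372-114788471 for Ighv1-26, chr12:115912344-115912443 for Ighv1-80, chr6:68736297-68736396 for Igkv19-93, chr16:19085017-19085116 for Iglv1 and chr16:19241207-19241306 for Iglv3, all on the minus strand.
Ighv1-26: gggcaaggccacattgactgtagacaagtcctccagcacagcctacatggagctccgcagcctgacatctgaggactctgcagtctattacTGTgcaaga
Ighv1-80: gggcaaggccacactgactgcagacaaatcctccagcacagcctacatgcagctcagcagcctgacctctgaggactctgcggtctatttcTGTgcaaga
Igkv19-93: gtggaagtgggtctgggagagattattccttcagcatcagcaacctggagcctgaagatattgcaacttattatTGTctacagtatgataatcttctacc
Iglv1: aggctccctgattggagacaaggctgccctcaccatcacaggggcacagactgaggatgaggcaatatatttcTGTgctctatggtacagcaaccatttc
Iglv3: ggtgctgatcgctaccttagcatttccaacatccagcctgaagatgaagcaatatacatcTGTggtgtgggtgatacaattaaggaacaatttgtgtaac
The codon was followed by 6 bases in both heavy segments, 23 in Igkv19-93, 24 in Iglv1 and 37 in Iglv3. The motif TANNNNTGT or TANNNNTGC, searched on the transcript's strand in its last 60 bases, was found in 166 of the 167 members (99.4%), in 250 of all 281 segments (89.0%) and in 50 of the 77 segments without a count (64.9%). Of 66 annotated pseudogenes, 40 held it (60.6%).

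Next, 2 pairs are shown because the members of each are near copies, so that a read lying wholly in a shared stretch could come from either. The first pair is Igkv1-110 (chr6:68271018-68271267) and Igkv1-117 (chr6:68121578-68121827), both on the plus strand, and the second is Iglv1 (chr16:19085017-19085266) and Iglv2 (chr16:19260401-19260650), both on the minus strand. The last 250 bases of each were set side by side from the 3′ end without gaps, and the capitals mark the bases that differ within a pair.
Igkv1-110: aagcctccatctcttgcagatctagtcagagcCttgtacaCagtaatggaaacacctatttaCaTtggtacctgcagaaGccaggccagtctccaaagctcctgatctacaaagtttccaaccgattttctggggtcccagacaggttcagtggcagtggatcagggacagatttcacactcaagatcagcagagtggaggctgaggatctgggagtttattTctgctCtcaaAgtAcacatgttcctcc
Igkv1-117: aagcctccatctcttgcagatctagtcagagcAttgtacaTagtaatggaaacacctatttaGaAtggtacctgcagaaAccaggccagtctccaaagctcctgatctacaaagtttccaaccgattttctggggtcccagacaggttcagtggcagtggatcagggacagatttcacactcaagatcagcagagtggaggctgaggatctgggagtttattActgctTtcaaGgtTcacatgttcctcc
Iglv1: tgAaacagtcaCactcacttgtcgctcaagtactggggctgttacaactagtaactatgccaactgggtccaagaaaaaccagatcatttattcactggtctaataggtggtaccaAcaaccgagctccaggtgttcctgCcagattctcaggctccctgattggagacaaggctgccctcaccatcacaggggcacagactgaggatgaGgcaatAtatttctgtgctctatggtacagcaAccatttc
Iglv2: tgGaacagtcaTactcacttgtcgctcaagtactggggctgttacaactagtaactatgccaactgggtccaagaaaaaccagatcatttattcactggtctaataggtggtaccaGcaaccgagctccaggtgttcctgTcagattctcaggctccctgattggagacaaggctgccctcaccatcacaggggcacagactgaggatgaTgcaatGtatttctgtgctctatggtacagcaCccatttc
The kappa pair differed at 9 of 250 positions (96.4% identity), with a longest shared run of 142 bases, and the lambda pair at 7 positions (97.2% identity), with a longest shared run of 104 bases. Close copies were common among the leading members: the nearest member to Ighv1-26, Ighv1-18, had 97.2% identity over the same length, and Ighv1-80 and Ighv1-82 had 96.4%. For counts summed over all libraries, the counting's own uncertainty was small all the same. The posterior standard deviation of the summed count was over 10% of its mean in 2 members, Igkv3-10 (20.1%) and Ighv1-61 (10.2%). In the pairs shown it was 1.18% for Igkv1-110, 0.788% for Igkv1-117 and 0 for Iglv1 and Iglv2. The counts of the lambda pair were whole numbers and showed no division of reads. This uncertainty covers the counting only. It was not worked out for single libraries, where low MON counts may be less certain.

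Summed over each locus, variable segment RNA was higher in both NEU libraries than in both MON libraries. The 90 heavy segments summed to 196 and 195 CPM in NEU and 101.4 and 93.9 CPM in MON. The 74 kappa segments summed to 160.0 and 159.9 CPM in NEU and 50.5 and 64.7 CPM in MON. The 3 lambda segments summed to 25.7 and 29.5 CPM in NEU and 7.40 and 2.94 CPM in MON. No locus had overlapping groups. As means, the heavy sum was 195 ± 0.658 CPM in NEU and 97.7 ± 5.31 CPM in MON (SD, n = 2 each), a ratio of 1.998. For kappa the means were 160.0 ± 0.0815 CPM in NEU and 57.6 ± 10.1 CPM in MON, a ratio of 2.78, and for lambda 27.6 ± 2.68 CPM in NEU and 5.17 ± 3.16 CPM in MON, a ratio of 5.35. With 2 against 2 libraries an exact two-sided permutation test cannot give a p below 0.333, so the sums carry no test. The lambda sum rested on few MON counts, 193 and 75, against 557 and 607 in NEU.

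**Figure D1:**
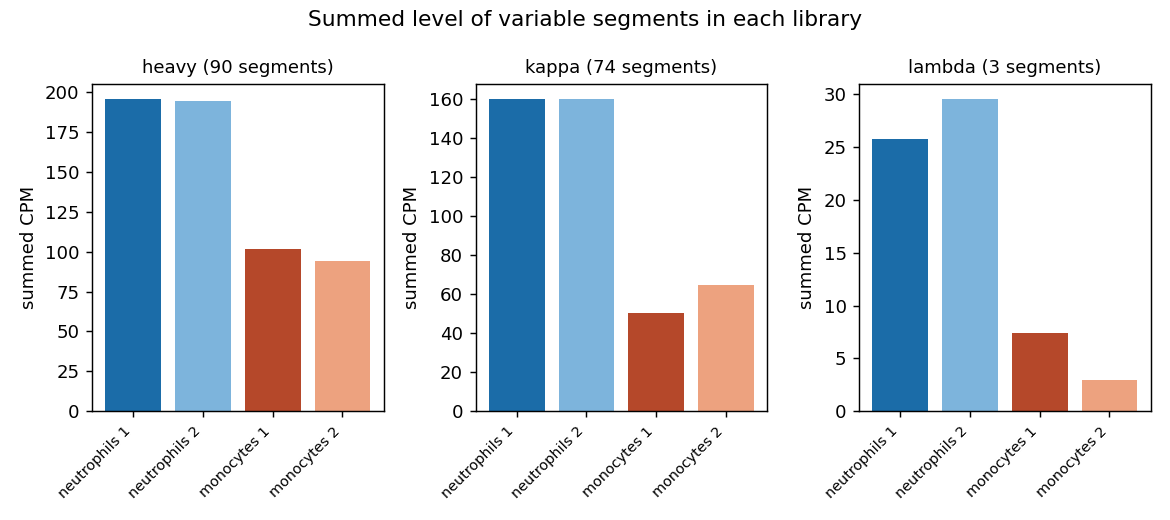
Summed CPM of the heavy, kappa and lambda variable segments (vertical axes, each starting at 0) in each of the 4 libraries, 1 bar a library with no error bar. Both neutrophil bars stand above both monocyte bars in every panel, and the 2 monocyte bars of the lambda panel differ by the largest factor, at 7.40 and 2.94 CPM.

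The loci also differed in balance. Lambda segments took 13.9% and 15.6% of light chain variable counts in NEU, with 95% Wilson intervals of 12.8 to 15.0% and 14.5 to 16.8%. In MON they took 12.8% (11.2 to 14.6%) and 4.34% (3.48 to 5.41%). The first MON library thus lay beside the NEU libraries and the second lay below all others, beyond counting error, which is all that the intervals cover. Heavy counts were 1.05 and 1.03 times the light chain counts in NEU and 1.75 and 1.39 times in MON, with no overlap.

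The constant genes, which every clone of a class shares, showed which kinds of antibody RNA each library held. Ighm (IgM) had 1990 and 1901 CPM in NEU and 369 and 400.2 CPM in MON, a log2 fold change of 2.34 ± 0.08 (SE, edgeR adjusted p = 4.1e-05). Ighd (IgD), which is spliced to the same variable regions in naive B cells, had 628 and 617 CPM in NEU and 26.3 and 26.2 CPM in MON (4.57 ± 0.09, edgeR adjusted p = 2.2e-05). Igha (IgA) ran the other way, with 12.1 and 13.4 CPM in NEU and 215 and 295 CPM in MON (-4.32 ± 0.20, edgeR adjusted p = 8.0e-05). Together, the switched genes Ighg1, Ighg2b, Ighg2c, Ighg3, Ighe and Igha took 0.603% and 0.678% of heavy constant counts in NEU and 38.7% and 42.5% in MON. Ighg2b fell in NEU, with 2.63 and 2.38 CPM against 25.6 and 8.61 CPM in MON (-2.76 ± 0.57, edgeR adjusted p = 0.013). Ighg1, Ighg2c and Ighg3 lay between 0 and 1.06 CPM in NEU and between 2.84 and 4.35 CPM in MON and did not pass the test, and Ighe had no count in any library. The kappa constant gene Igkc had 310.1 and 317 CPM in NEU and 128 and 130.3 CPM in MON (1.28 ± 0.08), and the lambda constant gene Iglc2 had 79.3 and 97.0 CPM in NEU and 15.0 and 16.5 CPM in MON (2.49 ± 0.16). Both passed the test. Iglc1 and Iglc3 matched no gene entry by name, so they could not be analysed here.

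Genes of plasma cells were split. Jchain, which links IgA and IgM into polymers, had 3.24 and 3.84 CPM in NEU and 125 and 141 CPM in MON (-5.23 ± 0.16, edgeR adjusted p = 2.9e-05). Prdm1, a regulator of plasma cell differentiation that other lymphocytes also express, fell in NEU, to 3.42 and 3.41 CPM, against 29.1 and 32.5 CPM in MON. Mzb1, a chaperone of antibody secretion, was called higher in NEU, with 16.8 and 19.4 CPM there and 12.0 and 8.07 CPM in MON. Over the 8 plasma cell genes, 2 were called higher in NEU and 3 higher in MON. The list summed to 256 and 268 CPM in NEU and 415 and 436 CPM in MON. Much of that sum came from Xbp1 and Irf4, which were called in opposite directions. Xbp1 had 113 and 114 CPM in NEU and 188 and 180 CPM in MON. Irf4 had 109 and 120 CPM in NEU and 52.0 and 65.5 CPM in MON. Sdc1, a surface marker of plasma cells, was measured at 10.6 and 7.98 CPM in NEU and 7.36 and 6.34 CPM in MON and did not pass. Cd79a, a signalling chain of the B cell receptor, had 242 and 235 CPM in NEU and 20.3 and 27.0 CPM in MON, and was called. The part of B cells or plasma cells in the variable segment values was not tested.

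**Figure D2:**
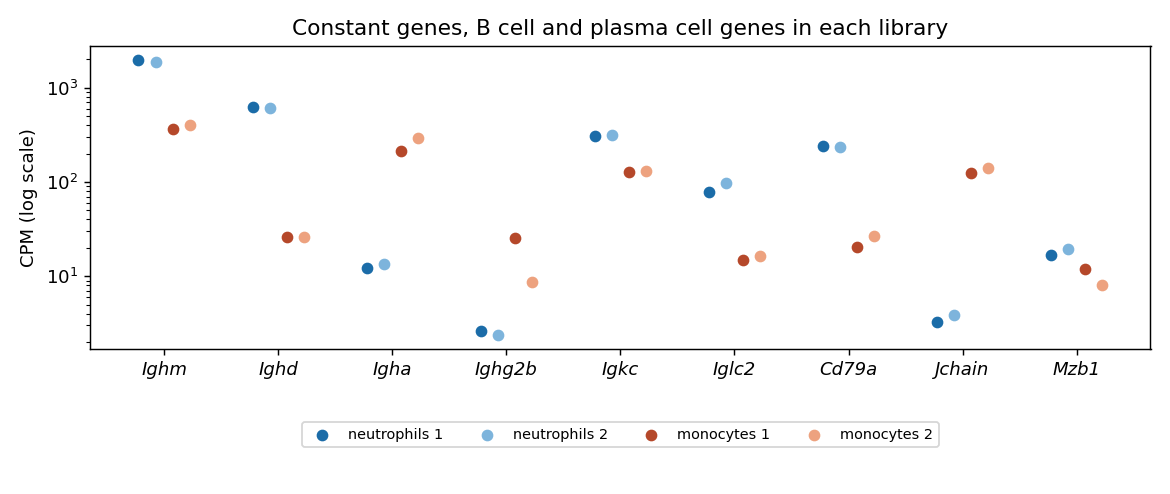
CPM on a log scale (vertical axis) of the constant genes and of selected B cell and plasma cell genes in each library, 1 point a library. Ighm, Ighd, Igkc, Iglc2 and Cd79a lie higher in the neutrophil libraries, while Igha, Ighg2b and Jchain lie higher in the monocyte libraries.

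The segments were also set against constant genes of their own locus, which for lambda was Iglc2 alone. On the TPM scale, which corrects for length, the heavy segments summed to 0.603 and 0.598 times the heavy constant genes in NEU and to 1.07 and 0.781 times in MON, with no overlap. The kappa segments gave 0.454 and 0.439 times Igkc in NEU and 0.336 and 0.428 times in MON, also without overlap, with the second MON library close to NEU. The lambda ratio to Iglc2 was 0.738 and 0.681 in NEU and 1.18 and 0.400 in MON, so that the MON libraries lay on both sides of NEU. These ratios carry no test.

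The genes for factors that act on these loci followed the B lineage markers in part. Pou2af1, a B cell coactivator of the octamer element in variable segment promoters, was called higher in NEU, at 220.4 and 229 CPM against 19.5 and 35.4 CPM in MON. Pou2f1, an octamer binding factor found in most cells, had 120 and 122 CPM in NEU and 56.0 and 53.6 CPM in MON and was also called, while Pou2f2 was at 90.0 and 82.1 CPM in NEU and 79.3 and 85.5 CPM in MON and was not. Rag1, a subunit of the recombinase that joins the segments, had 3.65 and 4.38 CPM in NEU and 2.49 and 1.06 CPM in MON and did not pass. Its partner Rag2 had 3 counts in 1 NEU library and none elsewhere. Vpreb1 and Vpreb2, which stand in for a light chain in developing B cells, had no count in any library, and Vpreb3, which mature B cells also transcribe, had 13.6 and 14.4 CPM in NEU and 1.04 and 0.235 CPM in MON (4.45 ± 0.66, edgeR adjusted p = 0.0039).

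Among the heavy segments, Ighv1-26 was by TPM the leading member in 3 of the 4 libraries and second in the other. It had 17.1 and 18.3 CPM in NEU and 7.90 and 7.67 CPM in MON, and it rose by 1.19 ± 0.21 on the log2 scale (edgeR adjusted p = 0.0078). Both replicate pairs lay close together and the groups did not overlap. Without the second NEU library its adjusted p was 0.064. Ighv1-80 overlapped between the groups, with 8.60 and 5.79 CPM in NEU and 8.36 and 6.77 CPM in MON (-0.07 ± 0.34), and by TPM it was the first segment of one MON library and the second of the other. Ighv1-82, its near copy, had 7.95 and 7.98 CPM in NEU and 1.30 and 2.51 CPM in MON (2.06 ± 0.47, edgeR adjusted p = 0.018). By CPM, Ighv1-80 was thus above Ighv1-82 in both MON libraries and in 1 of the 2 NEU libraries. By TPM, which corrects for length, it was above in both MON libraries only. Ighv1-80 had 10.3 and 6.34 TPM in NEU and 11 and 7.55 TPM in MON. Ighv1-82 had 13.53 and 12.25 TPM in NEU and 2.48 and 3.95 TPM in MON.

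The other leading heavy segments overlapped or did not pass in edgeR. Ighv1-19 had 6.06 and 5.79 CPM in NEU and 6.48 and 3.60 CPM in MON, and Ighv1-64 had 6.06 and 5.84 CPM in NEU and 5.25 and 2.98 CPM in MON. Ighv1-72 had 5.61 and 6.37 CPM in NEU and 5.94 and 1.84 CPM in MON, so that 1 MON library matched NEU and the other was well below. Ighv1-55 lay at 5.36 and 6.13 CPM in NEU and 2.68 and 2.98 CPM in MON (1.02 ± 0.41, edgeR adjusted p = 0.097, limma adjusted p = 0.019). Ighv10-3 had 3.74 and 4.04 CPM in NEU and 5.71 and 3.99 CPM in MON. The 3 called segments with the largest fold change among those counted in all 4 libraries were Ighv14-2, Ighv1-62-2 and Ighv7-3, all heavy. Ighv14-2 had 3.09 and 4.09 CPM in NEU and 0.0767 and 0.587 CPM in MON (3.42 ± 1.05, edgeR adjusted p = 0.046). For Ighv1-62-2 the log2 fold change was 3.31 ± 0.90 and for Ighv7-3 it was 3.19 ± 0.84.

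One heavy segment outside the naming rule is given because its values ran furthest the other way. Ighv9-4, chosen after its values were seen, had 0.601 and 0.389 CPM in NEU and 2.53 and 1.96 CPM in MON, without overlap (-2.17 ± 0.79, unadjusted p = 0.037 and adjusted p = 0.077 in edgeR's quasi-likelihood test). It was the 1 segment of 128 tested with a lower level in NEU at an unadjusted p under 0.05.

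Among the kappa segments, Igkv19-93 had the clearest difference. It had 11.05 and 8.91 CPM in NEU and 2.15 and 2.04 CPM in MON, and it rose by 2.25 ± 0.35 on the log2 scale (edgeR adjusted p = 0.0046). Igkv10-96 had 9.22 and 8.47 CPM in NEU and 2.02 and 2.90 CPM in MON (1.84 ± 0.38, edgeR adjusted p = 0.013), and Igkv12-46 had 5.96 and 7.59 CPM in NEU and 2.84 and 2.39 CPM in MON (1.38 ± 0.40, edgeR adjusted p = 0.039). Igkv1-117 was nearer between groups, with 10.9 and 10.7 CPM in NEU and 6.39 and 6.06 CPM in MON. Its log2 fold change of 0.79 ± 0.26 missed the threshold (edgeR adjusted p = 0.058, limma adjusted p = 0.039), although the groups did not overlap.

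Other kappa segments differed widely between the 2 MON libraries. Igkv1-110, the near copy of Igkv1-117, had 7.77 and 10.7 CPM in NEU and 0.893 and 4.20 CPM in MON. Igkv1-135 had 7.90 and 6.67 CPM in NEU and 3.14 and 0.392 CPM in MON, and Igkv14-111 had 8.09 and 6.03 CPM in NEU and 0.460 and 2.23 CPM in MON. In each of the 3 the MON libraries differed by over 2-fold and the NEU libraries by less, and the groups did not overlap. None passed in edgeR (adjusted p = 0.094 for Igkv1-110, 0.13 for Igkv1-135 and 0.057 for Igkv14-111), while DESeq2 called all 3 (adjusted p = 0.032, 0.048 and 0.0094 in the same order) and limma called Igkv14-111 (adjusted p = 0.034). Igkv6-25 had 1.72 and 2.03 CPM in NEU and 0.652 and 6.34 CPM in MON, which made it, by TPM, the third segment of the second MON library and the 65th of the first. Igkv16-104 had 5.69 and 4.96 CPM in NEU and 2.91 and 3.92 CPM in MON (0.64 ± 0.41) and did not pass.

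Of the 3 lambda segments, Iglv3 and Iglv1 were among the highest members in both NEU libraries. Iglv3, which encodes the variable region also called lambda x, had 13.1 and 14.2 CPM in NEU and 1.57 and 1.57 CPM in MON, and its log2 fold change of 3.12 ± 0.31 had the lowest adjusted p of any member (edgeR adjusted p = 0.00093). Iglv1 had 11.1 and 14.4 CPM in NEU and 5.83 and 1.37 CPM in MON (1.83 ± 0.66, edgeR adjusted p = 0.076, DESeq2 adjusted p = 0.016). It was the fifth segment of the first MON library by TPM and the 42nd of the second. Iglv2 had 34 and 20 counts in NEU and none in MON, at least 22.0-fold higher when the MON group is set to 3 counts in all. That bound covers counting error only, and the MON libraries scattered beyond it at other segments. Iglv2 passed the filter on low counts through NEU alone, so its call carries no information on direction. Within the locus, Iglv1 took 43.1% and 48.8% of the counts in NEU and 78.8% and 46.7% in MON.

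In the test over all genes, 128 of the 167 members passed the filter on low counts and 39 did not. Of the 128, 35 were called higher in NEU in edgeR, 27.3%, against 21.8% of all 14309 genes tested, which is near the background. DESeq2 called 39 members higher in NEU, against 3276 of the 14309 genes. With limma on log2(TPM + 1), 56 of the 128 were called higher in NEU, against 2174 of the 14309 genes. By limma the share was thus well above the background, and the 35 were among the 56. No member was called higher in MON in edgeR, against 20.8% of all genes tested, with 1 at an unadjusted p under 0.05. DESeq2 called 0 members higher in MON and limma 1, Ighv9-4. The edgeR calls were 20 of 71 tested heavy segments (28.2%), 13 of 54 kappa (24.1%) and 2 of 3 lambda, of which Iglv2 had no count in MON. The median log2 fold change of the tested members was 1.63, against 0.07 over all genes. It includes the tested members without a MON count. Setting those to their lower bounds could not move it, since every such bound lay above the median. In 19 of the 35 called members, MON had no count at all, and these were all the tested members of that kind. Such members passed the filter through NEU alone, so their direction was fixed by it. Among the 73 members with counts in all 4 libraries, 15 were called higher in NEU, a share below the 21.8% of all genes tested. The share among all genes counted in all 4 libraries was not worked out.

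The number of calls depended on which group lost a library, and little on which of its libraries was left out. Without the first or the second NEU library 4 members were called higher in NEU either time, of which 3 and 4 were among the 35. Without the first MON library 70 were called and without the second 72, of which 33 and 34 were among the 35. Over all genes the count higher in NEU moved the same way, to 1810 and 1913 without a NEU library and to 4628 and 4675 without a MON library, against 3118. Igkv19-93 and Iglv3 were the 2 members called with every library left out in turn, with both other tests and without the filter.

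More segments had counts in NEU. Of the 90 heavy segments, 89 and 87 had a count in NEU and 54 and 54 in MON. At a common depth of 2399 heavy counts a library, the expected numbers were 88.4 and 86.7 in NEU and 53.8 and 54.0 in MON, nearly as far apart as at full depth. Of the 74 kappa segments, 73 and 73 had a count in NEU and 38 and 43 in MON, and at 1316 counts a library the numbers were 71.5 and 70.8 in NEU and 38.0 and 42.6 in MON. These counts lean towards NEU by construction, since a segment with enough reads in NEU alone became a member. Of all 167, 47 had no count in either MON library and none lacked a count in both NEU libraries. Over all genes, 18017 and 18041 had a count in NEU and 14957 and 15111 in MON, where total counts were higher. Rarefaction evens out the number of counts only, not scatter beyond counting error, which was larger in MON. The part of such library differences in the segment numbers was not tested.

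The evenness of use, which depends little on rare segments, differed in the same direction. Scatter of counts beyond counting error also lowers evenness, and it was larger in MON. Of other genes with like counts, 48.5% differed by over 2-fold between the MON libraries and 13.3% between the NEU libraries. The part of this scatter in the evenness was not tested. The inverse Simpson index, the number of equally used segments that would give the same concentration, was 39.6 and 38.7 for heavy segments in NEU and 25.4 and 27.0 in MON. For kappa segments it was 31.5 and 31.9 in NEU and 21.5 and 21.7 in MON. The 5 highest heavy segments held 24.0% and 22.9% of heavy counts in NEU and 33.9% and 31.9% in MON, and the 5 highest kappa segments held 29.4% and 29.0% in NEU and 35.6% and 37.9% in MON. The highest segments that together held 50% of the counts numbered 16 and 16 in NEU and 9 and 10 in MON for the heavy locus. No single segment dominated any library: the highest held 4.48% and 4.77% of variable counts in NEU, Ighv1-26 in both, and 5.25% and 4.75% in MON, Ighv1-80 in the first and Ighv1-26 in the second. These are shares of counts, not of cells, since transcript output per cell differs between B cells and plasma cells.

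**Figure D3:**
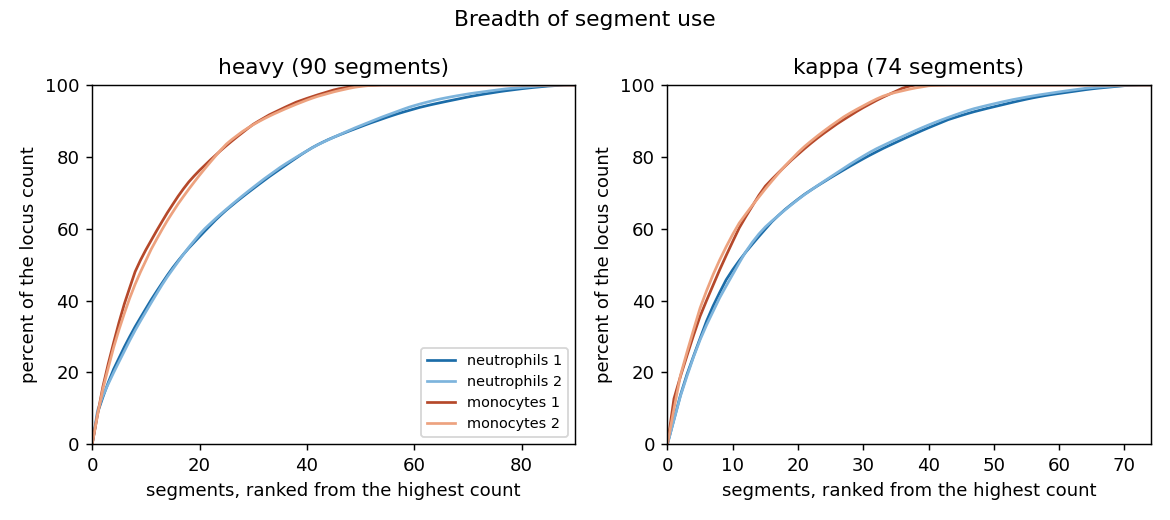
Cumulative percent of the counts of a locus (vertical axis) against its segments ranked from the highest count in each library (horizontal axis), heavy segments on the left and kappa on the right. The 2 neutrophil curves lie together and below the 2 monocyte curves, which reach 100% after 54 and 54 heavy and 38 and 43 kappa segments.

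The libraries of NEU were more alike than those of MON. Over the 167 members, the NEU libraries had a Pearson r of 0.912 on log2(CPM + 1), a Spearman rho of 0.861 and a shared share of use of 86.7%, the overlap of their 2 usage profiles. The MON libraries had an r of 0.671, a rho of 0.620 and an overlap of 62.8%. Over all members that is no closer than a MON library stood to a NEU library, where r was 0.642 to 0.697 and the overlap 61.1% to 62.8%. For kappa segments alone r was 0.913 in NEU and 0.549 in MON, and for heavy segments 0.897 in NEU and 0.747 in MON. For heavy segments the MON pair, with an overlap of 67.8%, was somewhat closer than any NEU and MON library, where r was 0.674 to 0.738 and the overlap 62.0% to 66.5%. Correlations are across segments of 2 libraries, are given as description and depend on the shared low counts. The chi-square of the counts per degree of freedom, the variance over its counting value, was 3.58 in NEU (163 segments) and 18.3 in MON (104 segments).

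Other genes scattered between the MON libraries as well. Of the 82 members with at least 20 counts over both MON libraries, 45.1% differed by over 2-fold between the libraries, with a median absolute log2 ratio of 0.90. Of 5344 other genes in the same range of counts, 48.5% did, with a median of 0.96. In NEU, 14.9% of 134 members differed by over 2-fold, against 13.3% of 7247 other genes. The sums over a locus hid it: the MON libraries had 101.4 and 93.9 CPM of heavy segments, while single segments had counts in 1 library only.

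In all, 47 members had counts in just 1 of the 2 MON libraries, against 6 in NEU. The highest of them had high counts in the other 3 libraries. Ighv14-4 had 67 and 64 counts in NEU and 0 and 82 in MON, and Igkv12-44 had 81.8 and 106 in NEU and 0 and 67 in MON. In the opposite direction, Ighv6-6 had 60 and 37 counts in NEU and 60 and 0 in MON, and Igkv8-30 had 37 and 39.1 in NEU and 56 and 0 in MON. These 4 were chosen after their values were seen. The zeros were thus found on both sides of the MON pair, with no MON library lacking segments as a whole (94 and 99 members with a count). By the naming rule, 7 members held at least 80% of their CPM in 1 library with at least 10 counts there, 5 in the first NEU library and 2 in the second, and all had low counts, from 10 in Igkv12-38 to 25 in Ighv2-9. The 10 highest segments by TPM shared 7 between the NEU libraries, 3 between the MON libraries and 3 or 4 between a NEU and a MON library.

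**Figure D4:**
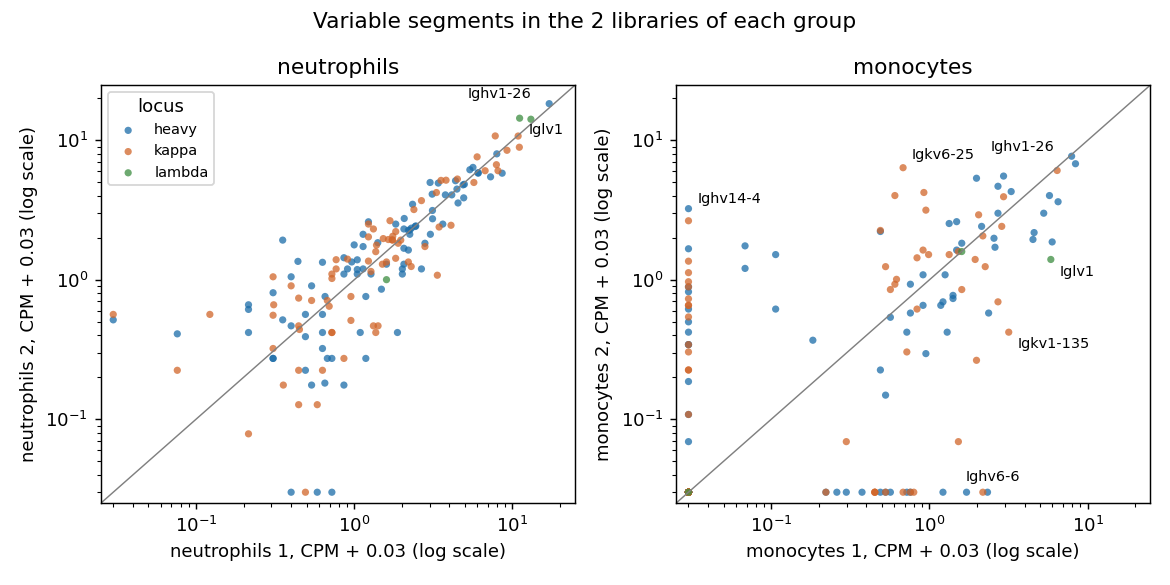
Each variable segment in the first library (horizontal axis) and the second library (vertical axis) of neutrophils, left, and monocytes, right, as CPM + 0.03 on log scales, so that a segment with no count lies at 0.03, with the line of equality in grey. Neutrophil points follow the line (r = 0.912 on log2(CPM + 1)), while monocyte points spread widely (r = 0.671) and many lie at 0.03 on 1 axis because that library had no count.

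T cell receptor variable segments, which T cells join in the same way, had few counts. Under the same threshold 23 of 143 were kept, with sums of 13.2 and 12.4 CPM in NEU and 15.1 and 10.6 CPM in MON, which overlap. Over these 23, Pearson r was 0.486 in NEU and 0.953 in MON, and Spearman rho was 0.472 in NEU and 0.410 in MON.

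Subgroups join segments of similar sequence. The largest heavy subgroup, Ighv1, held 44 members of the 86 segments listed and took 60.2% and 60.5% of heavy counts in NEU and 63.9% and 61.5% in MON. The next in NEU, Ighv5, took 6.17% and 7.0% there and 1.78% and 2.58% in MON. Ighv8 took 4.28% and 3.48% in NEU and 1.44% and 0.667% in MON, and Ighv7 took 2.36% and 2.20% in NEU and 0.454% and 0.208% in MON. Ighv3 took 2.72% and 3.275% in NEU and 1.93% and 2.13% in MON. Ighv10 and Ighv9 ran the other way, at 4.42% and 4.05% in NEU against 8.17% and 6.05% in MON, and at 3.31% and 3.60% in NEU against 5.14% and 7.05% in MON. So did Ighv4, at 1.49% and 2.05% in NEU against 2.87% and 5.88% in MON, and Ighv11, at 0.496% and 0.9% in NEU against 1.55% and 1.92% in MON. Ighv11-2 and Ighv12-3, known in mice from B-1 cells that bind phosphatidylcholine, are both members. Ighv11-2, the only Ighv11 member, had 0.971 and 1.75 CPM in NEU and 1.57 and 1.80 CPM in MON, which overlap, unlike its shares of heavy counts. Ighv12-3 had 15 and 5 counts in NEU and none in MON. The largest kappa subgroup, Igkv1, took 17.9% and 19.0% in NEU and 20.7% and 16.5% in MON. Igkv4, the subgroup with most members (17), took 8.46% and 10.5% in NEU and 11.2% and 17.2% in MON. With segments joined by subgroup, the inverse Simpson index was 2.63 in NEU and 2.44 in MON for heavy segments and 10.5 in NEU and 9.88 in MON for kappa segments.

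Members were spread along both loci. The heavy locus lies on chromosome 12 and the kappa locus on chromosome 6, and each was divided into 3 parts of like segment number by distance from the joining segments. Of the heavy segments, 32 of 59 were members in the nearest part (143 to 838 kb), 25 of 58 in the middle and 33 of 58 in the farthest (1450 to 2570 kb). The nearest part took 24.3% and 25.9% of heavy counts in NEU and 18.2% and 25.5% in MON. The farthest part took 39.5% and 38.4% in NEU and 39.96% and 34.0% in MON. In the kappa locus 27 of 35 were members in the nearest part, 23 of 34 in the middle and 24 of 34 in the farthest (1954 to 3167 kb), which took 54.0% and 52.7% of kappa counts in NEU and 52.4% and 43.8% in MON. Neither locus thus used only the segments next to the joining segments.

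**Figure D5:**
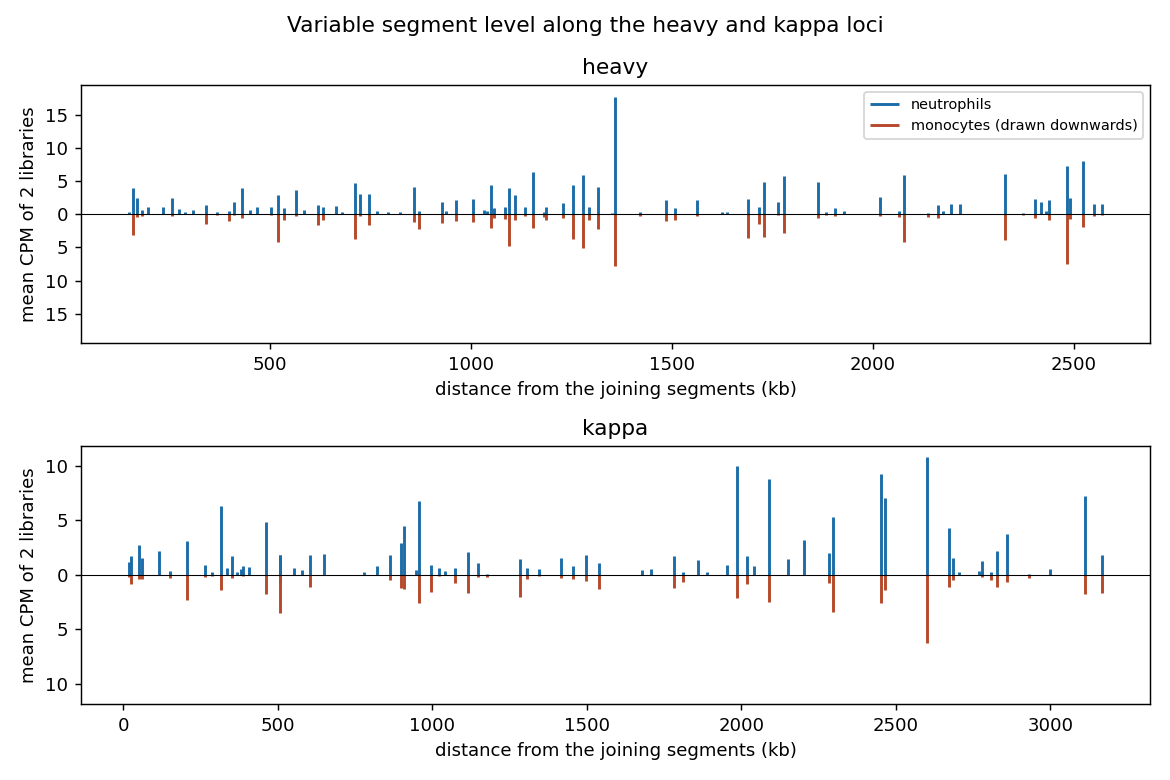
Mean CPM of each variable segment (vertical axis) in neutrophils, drawn upwards, and in monocytes, drawn downwards, against its distance from the joining segments in kilobases (horizontal axis), for the heavy locus above and the kappa locus below, each mean from 2 libraries. High and low segments alternate along both loci, and Ighv1-26 stands highest in the heavy locus in both groups.

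In the kappa locus, segments lie in both orientations. Those on the plus strand, like the joining segments, are joined by deletion of the DNA between, and those on the minus strand by its inversion. The 29 members on the plus strand took 50.8% and 50.3% of kappa counts in NEU and 52.1% and 55.8% in MON, and the 45 on the minus strand took the rest. The orientations were thus used in nearly equal parts in each library.

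Segments annotated as pseudogenes held little. Of 66 in the tables, 3 were members, Ighv4-2, Ighv1-2 and Ighv1-25, all heavy, and all had counts in NEU only, from 0 to 13 a library. Of 213 segments annotated as genes, 164 were members and 21 had no count. At the threshold, Ighv1-25 and Igkv12-38 had a summed count of 10, the lowest of the members, and Ighv1-49, Ighv3-4, Igkv1-122 and Igkv8-18 had 11. Just outside it, Ighv2-4, Ighv8-6, Igkv2-112 and Igkv4-69 had 9. All of these 10 had counts in NEU only. Among members found in NEU only, Igkv14-100 had the highest lower bound on its fold. It had 88 and 50 counts in NEU and none in MON, at least 56.3-fold higher by the bound used for Iglv2, which covers counting error only. Like Iglv2, it passed the filter on low counts through NEU alone, so its direction was fixed by that filter.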

How the data were processed

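Total RNA libraries were made with random hexamers after ribosomal RNA was removed. The authors aligned the reads to mm10 with STAR (2.5.1b_modified in the study's methods) and counted them with RSEM 1.2.28. No source used here gives the strand setting. The deposited tables hold expected counts, which are estimated read numbers that share out ambiguous reads, the posterior mean and standard deviation of the count, effective lengths, and TPM, which the authors' RSEM run scaled for length.

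Names and coordinates came from GENCODE M21, which matched 98.0% of 43346 gene identifiers (the study names release M4). Entries without a gene identifier held at most 0.000594% of counts and were left out. CPM used the total expected count over genes. The members and lists were chosen with earlier results of these data known. Rounded expected counts were fitted with edgeR 4.0.16 (filterByExpr, TMM, quasi-likelihood F test) in R 4.3.3, and Benjamini-Hochberg adjusted p-values under 0.05 were called. The SE of a log2 fold change is its size over the square root of F. The script was tested on simulated data. Alternatives used DESeq2 1.42.0, limma 3.58.1 on log2(TPM + 1), no filter and each library left out, where a lone library was assumed to vary like the other group. Breadth was rarefied exactly, and shares have 95% Wilson intervals, which cover counting error only, since reads carry no molecular identifiers. Named were the leading 8 heavy, 8 kappa and up to 4 lambda segments by mean CPM, the 3 highest of each library, the 3 called with the largest fold, those mostly in 1 library and those at the threshold. One marker gene is not reported here and was left out of its list.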

Additional observations from a re-analysis of the deposited data

How the results depend on the processing

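No paired analysis was possible because the replicate numbers follow deposit order only and pair no libraries. The count of members called higher in NEU stayed within 1.5 times of 35 with DESeq2 size factors (35), the DESeq2 test (39), no filter (35), without pseudogenes (34), without uncertain reads (35) and at a summed count of at least 50 (25). With limma on log2(TPM + 1) it was 56, and with 1 library left out it ran from 4 to 72. Members called higher in MON numbered 1 with limma and 0 to 2 with a library left out, and 0 under the other alternatives. Summed by locus, the direction held under every alternative run: the log2 ratio of NEU over MON ran over left-out libraries from 0.94 to 1.05 for heavy, 1.31 to 1.66 for kappa and 1.90 to 3.23 for lambda segments, and the heavy ratio was 0.91 at a summed count of at least 50.

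The mean inverse Simpson index by subgroup was 2.63 in NEU and 2.44 in MON (heavy) and 10.5 in NEU and 9.88 in MON (kappa), a narrower gap than with single segments. From shares of TPM, chosen after seeing the data, it was 37.1 in NEU for heavy and 32.8 in NEU and 22.3 in MON for kappa segments. At a common depth the mean number of segments used was 53.9 for heavy in MON and 71.2 for kappa in NEU. On log2(CPM + 0.1) r was 0.827 in NEU and 0.615 in MON, and it was 0.567 in MON at a summed count of at least 50. The ratios to constant genes kept their direction with counts in place of TPM. Low counts limit single segments: in MON the median heavy segment had 0.365 to 0.403 CPM.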
